A study of Saccharomyces cerevisiae with 8 samples.

Results

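Lysine biosynthesis in budding yeast is represented here by 8 genes: the 7 enzyme genes LYS20, LYS21, LYS4, LYS12, LYS2, LYS9 and LYS1, and the regulator LYS14. They were matched by gene name and open reading frame among the 6256 genes of the array, and all 8 were among the 6126 genes that passed the filter on dim signals. The genes were chosen with their values on these arrays known, in particular the low LYS9 ratios of the aneuploid strains against wild type. Their values in the strains are therefore given as a description, with no test.

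Saccharomyces cerevisiae makes lysine through the α-aminoadipate pathway. Homocitrate synthase (Lys20 and Lys21) joins 2-oxoglutarate and acetyl-CoA, homoaconitase (Lys4) and homoisocitrate dehydrogenase (Lys12) carry the product to 2-oxoadipate, and an aminotransferase makes α-aminoadipate from it. α-Aminoadipate reductase (Lys2), saccharopine reductase (Lys9) and saccharopine dehydrogenase (Lys1) then complete lysine, with glutamate as the donor of nitrogen. The activator Lys14 responds to the semialdehyde made by Lys2, lysine inhibits homocitrate synthase, and Gcn4 raises many genes of the pathway when amino acids are short.

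The study compared RNA of aneuploid yeast strains, which carry an unbalanced set of chromosomes, with RNA of wild-type cells on 2-colour Agilent arrays. The 7 strains, A2 and A3, A9 and A10, and A13 to A15, were labelled with Cy5, each on 1 array, and the wild-type sample WT1 was labelled with Cy5 on 1 further array. The wild-type sample WT2, in Cy3, was the other channel of all 8 arrays, and all cells were in mid-log growth. The strains' karyotypes, parent, ploidy, alleles and medium are not given in the sources used here, so whether lysine was supplied is unknown, and nothing states that any sample was grown more than once. Each value below is a log2 ratio over WT2 unless stated otherwise. A value of 0 is the level of WT2, and values of different genes are ratios and not levels. The SD over strains measures how far the strains differ from each other. In bulk RNA, fewer cells with a transcript and less transcript per cell cannot be told apart.

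The duplicate spots of a gene had a pooled SD of 0.0619 to 0.0799 per array, and the SD of the log2 ratio over genes was 0.156 for WT1 and 0.271 (A13) to 0.708 (A10) for the strains. Strains A9 and A10 stood apart in mating genes. All 7 a-specific genes were below -1 in both, among them the α-factor receptor STE2 at -6.18 and -6.38 and the α-factor protease BAR1 at -5.49 and -5.47. In A9 all 4 α-specific genes were above 1, with the a-factor receptor STE3 at 4.66 against 1.24 in A10. In A10 all 8 haploid-specific genes were below -1, with the mating-type switching endonuclease HO at -5.00 against -1.42 in A9. In A2, A3 and A15, 4 of the 7 a-specific genes were below -1, and in A13, A14 and WT1 none was. The mean differences from WT1 below are also given without A9 and A10, a choice made after seeing the data.

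Of the 8 genes, LYS9 differed most from WT1 and varied least among the strains. Its ratio was -0.47 in A2, -0.57 in A3, -0.84 in A9, -0.53 in A10, -0.54 in A13, -0.75 in A14 and -0.66 in A15, against 0.11 in WT1. All 7 strains lay below both wild-type samples (7.34% of the genes measured on every array had all strains below WT1, and 7.87% below WT2), and the nearest strain, A2, was 0.57 below WT1. The mean over strains was -0.62 ± 0.14 (SD, n = 7), a difference from WT1 of -0.73, which is 0.602 times the WT1 level. LYS9 (YNR050C, chromosome XIV) encodes saccharopine reductase, the step before the last. The LYS9 ratios spanned 0.38 over the strains, whereas those of the other 7 genes spanned 0.85 to 1.42. In the order of the strains no neighbours differed by more than 0.0920, which is within the SD of 0.0985 that the WT2 channel of LYS9 had over the 8 arrays. That SD covers repeated hybridisation of 1 sample only, and the spread between cultures of a strain or of wild type is unknown. The LYS9 duplicate spots differed by at most 0.0853 on any array. Without A9 and A10 the mean difference from WT1 was -0.71.

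**Figure D1:**
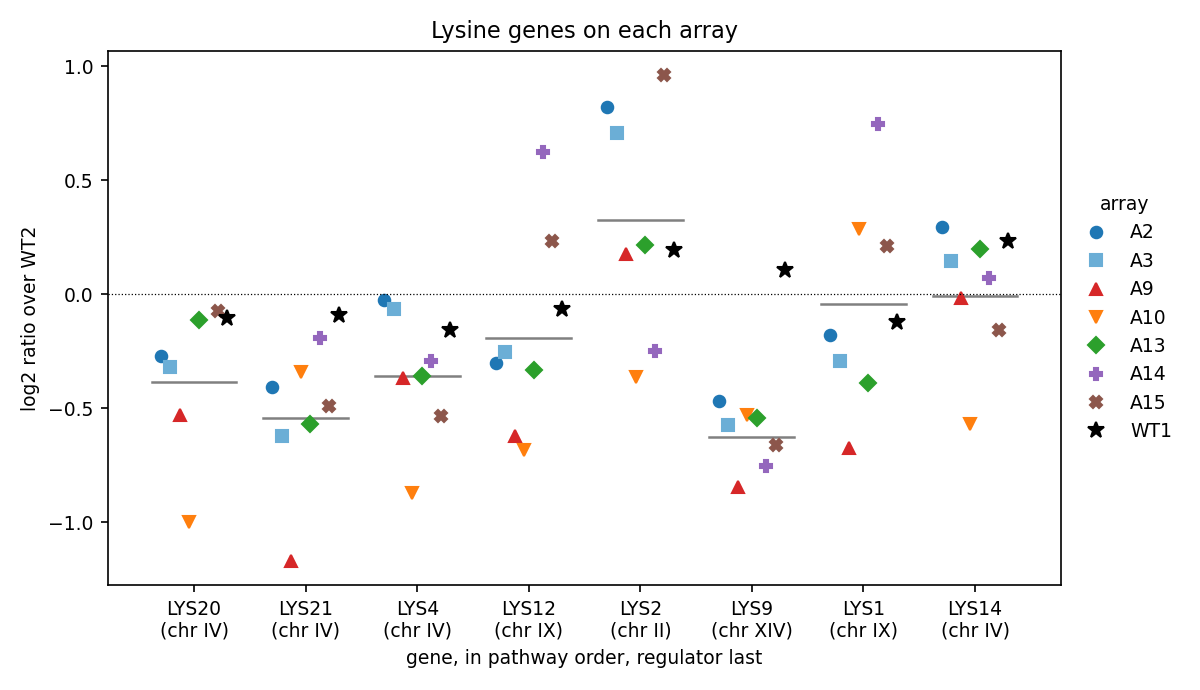
Log2 ratio over WT2 (vertical axis) of the 8 lysine genes on each of the 8 arrays, in pathway order with the regulator last; the symbols are arrays and the grey bars are means over the strains. All LYS9 strain values lie between -0.84 and -0.47, below WT1 at 0.11, while LYS2, LYS1 and LYS12 spread on both sides of 0.

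LYS21, one of the homocitrate synthase genes (YDL131W, chromosome IV), was the other gene for which all 7 strains lay below WT1. Its ratio was -0.41 in A2, -0.62 in A3, -1.17 in A9, -0.34 in A10, -0.57 in A13, -0.19 in A14 and -0.49 in A15, against -0.09 in WT1. The mean was -0.54 ± 0.31 (SD, n = 7), and the difference from WT1 was -0.45, or 0.733 times WT1. A9 was the lowest strain, 0.55 below the next, and A14 was the nearest to WT1, 0.10 below it. All strains were below WT1 in 7.34% of the genes measured on every array. Without A9 and A10 the difference from WT1 was -0.36.

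LYS20 (YDL182W, chromosome IV), the other homocitrate synthase gene, had its lowest value in A10 instead. Its ratio was -0.27 in A2, -0.32 in A3, -0.53 in A9, -1.0005 in A10, -0.11 in A13 and -0.07 in A15, against -0.10 in WT1. A14 had no value because the scanner software flagged both spots as outliers, and the ratio there was -0.90 when such spots were kept. The strains overlapped WT1, with 5 of 6 below it, and the mean was -0.38 ± 0.34 (SD, n = 6), which is -0.28 from WT1. LYS20 was the least precisely measured of the 8 genes. Its WT2 channel had an SD of 0.563 over the arrays against 0.0713 to 0.170 for the other 7, its duplicate spots differed by up to 0.42, and 4 of its 16 spots were flagged, both in A14, 1 in A9 and 1 in A15. Without A9 and A10 the LYS20 mean was -0.09 from WT1.

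LYS4 (YDR234W, chromosome IV), which encodes homoaconitase, was below WT2 on every array, by little in A2 and A3. Its ratio was -0.03 in A2, -0.07 in A3, -0.37 in A9, -0.87 in A10, -0.36 in A13, -0.29 in A14 and -0.53 in A15, against -0.16 in WT1. A2 and A3 were above WT1 and the other 5 strains below it, so the groups overlapped. With median centring in place of loess A2 was at 0.14 and A3 at 0.05, above WT2. The mean of -0.36 ± 0.29 (SD, n = 7) was -0.20 from WT1, and -0.10 without A9 and A10.

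LYS12 (YIL094C, chromosome IX), encoding homoisocitrate dehydrogenase, was low in 5 strains and high in A14 and A15. Its ratio was -0.30 in A2, -0.25 in A3, -0.62 in A9, -0.68 in A10, -0.33 in A13, 0.62 in A14 and 0.23 in A15, against -0.06 in WT1. The mean was -0.19 ± 0.47 (SD, n = 7), -0.13 from WT1. Leaving out A9 and A10 turned this difference to 0.06.

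LYS2 (YBR115C, chromosome II), encoding α-aminoadipate reductase, was the gene with the highest mean. Its ratio was 0.82 in A2, 0.71 in A3, 0.18 in A9, -0.36 in A10, 0.22 in A13, -0.25 in A14 and 0.96 in A15, against 0.19 in WT1. A2, A3 and A15 were above WT1, A9 and A13 were near it, and A10 and A14 were below. The mean of 0.32 ± 0.52 (SD, n = 7) was 0.13 from WT1, a difference smaller than the SD between strains, and 0.30 from WT1 without A9 and A10.

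LYS1 (YIR034C, chromosome IX), encoding the saccharopine dehydrogenase of the last step, had the widest range. Its ratio was -0.18 in A2, -0.29 in A3, -0.68 in A9, 0.29 in A10, -0.39 in A13, 0.75 in A14 and 0.21 in A15, against -0.12 in WT1. Of the 7 strains 4 were below WT1, and the mean of -0.04 ± 0.48 (SD, n = 7) was 0.08 from WT1. Without A14 the difference was -0.05, so its direction rests on that strain, and without A9 and A10 it was 0.14.

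The regulator LYS14 (YDR034C, chromosome IV) was lowest in A10. Its ratio was 0.29 in A2, 0.14 in A3, -0.02 in A9, -0.57 in A10, 0.20 in A13, 0.07 in A14 and -0.16 in A15, against 0.23 in WT1. A2 was above WT1 and the other 6 strains below it, and the mean over strains was -0.24 from WT1 with an SD of 0.29. Without A9 and A10 it was -0.13 from WT1.

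The chromosomes that carry these genes differed in median ratio between the strains, which bears on LYS2, LYS1 and LYS12. The median log2 ratio of chromosome II, with the lysine genes left out, was 0.73 in A3, 0.66 in A2, 0.64 in A9, 0.49 in A15 and 0.28 in A13, against -0.13 in A10 and -0.02 in A14. Chromosome IX had a median of 0.80 in A14 and 0.12 in A15, with the other strains between -0.12 and -0.05. Chromosomes IV and XIV had medians of -0.22 to -0.02 and of -0.18 to -0.03 in the strains. These medians are transcript ratios, and copy number itself was not measured. LYS2 was thus high in A2, A3 and A15, where its chromosome was high, and near WT1 in A9, where its chromosome was equally high. LYS1 and LYS12 had their highest values in A14, the strain with the high chromosome IX.

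**Figure D2:**
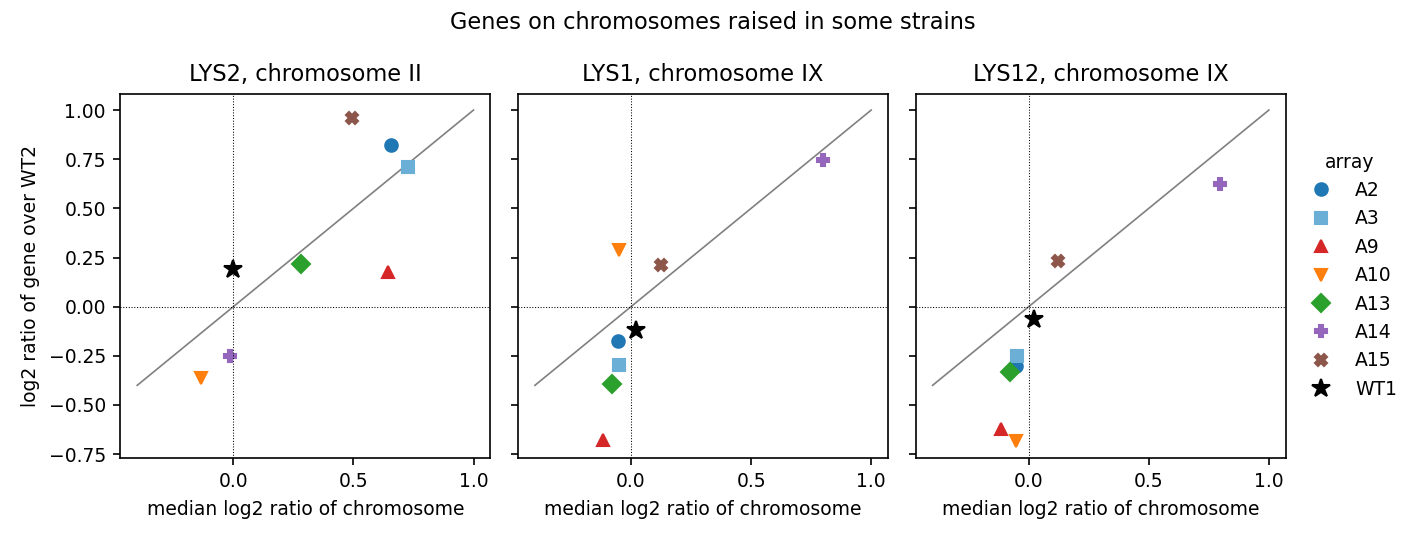
Log2 ratio over WT2 of LYS2, LYS1 and LYS12 (vertical axis) against the median log2 ratio of their chromosome on the same array (horizontal axis), 1 symbol per array; the grey line marks equality. LYS1 and LYS12 in A14 lie close to a chromosome median of 0.80, and LYS2 in A9 lies below the line at 0.18 for a chromosome median of 0.64.

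Each ratio was next set against the median of the gene's chromosome on the same array. This narrowed the SD over strains to 0.583 times its former value for LYS2, 0.600 times for LYS1 and 0.515 times for LYS12, and it left that of LYS9 and LYS21 nearly as it was, at 1.02 and 0.993 times. LYS9 relative to its chromosome was -0.40 in A2, -0.51 in A3, -0.69 in A9, -0.35 in A10, -0.50 in A13, -0.72 in A14 and -0.56 in A15, against 0.13 in WT1. LYS9 again had no overlap with WT1, and its mean of -0.53 ± 0.14 (SD, n = 7) was -0.66 from WT1. On this scale 8.14% of the genes measured on every array had all strains below WT1.

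Relative to the chromosome, LYS21 was -0.33 in A2, -0.56 in A3, -1.05 in A9, -0.12 in A10, -0.50 in A13, -0.17 in A14 and -0.38 in A15, against -0.09 in WT1. Its mean of -0.45 ± 0.31 (SD, n = 7) was -0.35 from WT1. All strains were below WT1, as in 8.14% of the genes measured on every array, A10 by the least. With median centring A10 was above WT1, at 0.0068 against -0.05. LYS12 relative to its chromosome was -0.25 in A2, -0.20 in A3, -0.51 in A9, -0.63 in A10, -0.25 in A13, -0.18 in A14 and 0.11 in A15, against -0.09 in WT1. The high ratio of LYS12 in A14 was therefore below that of its chromosome, and 6 of 7 strains were now below WT1.

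LYS1 in A14 was at -0.05 relative to its chromosome, and its relative values elsewhere ran from -0.56 in A9 to 0.34 in A10, with WT1 at -0.14. LYS1 in A10 was the highest value of any of the 8 genes in that strain. LYS2 relative to chromosome II was 0.16 in A2, -0.02 in A3, -0.47 in A9, -0.23 in A10, -0.06 in A13, -0.23 in A14 and 0.47 in A15, against 0.19 in WT1, so that only A15 exceeded WT1. Its mean difference from WT1 turned from 0.13 to -0.25.

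LYS4, LYS20 and LYS14 lie on chromosome IV, whose median was -0.12 to -0.02 in the strains other than A10. Relative to the chromosome LYS4 ran from -0.65 in A10 to 0.05 in A2, LYS20 from -0.78 in A10 to 0.04 in A15, and LYS14 from -0.35 in A10 to 0.37 in A2. A10 was the lowest strain for LYS4 and LYS14, and for LYS20 among the 6 strains with a value. With the flagged spots kept, LYS20 in A14 was -0.88 relative to the chromosome, below A10. Their mean relative differences from WT1 were -0.11, -0.18 and -0.15, each smaller than its SD over strains of 0.24, 0.29 and 0.24.

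**Figure D3:**
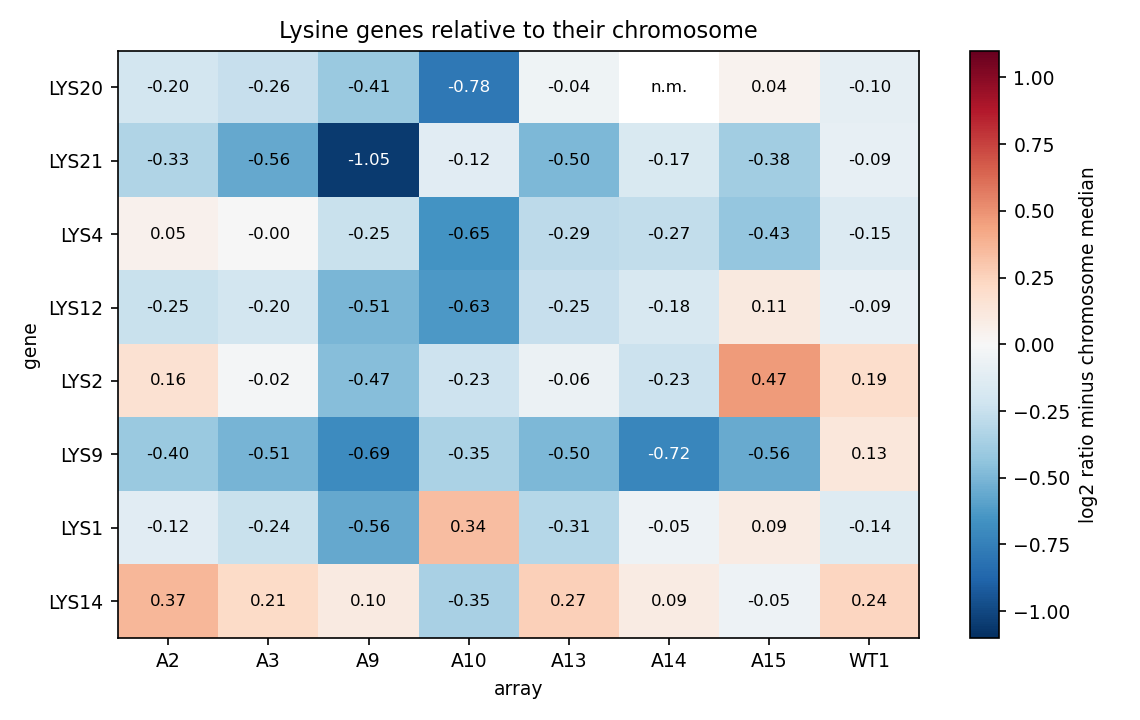
Log2 ratio minus the chromosome median (colour and printed value) for each lysine gene on each array; n.m. marks LYS20 in A14, which was not measured. LYS9 is between -0.72 and -0.35 in every strain, A9 holds the lowest value of all (-1.05, LYS21), and A10 joins low LYS20, LYS4 and LYS12 with a LYS1 value of 0.34.

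Strain by strain, the 7 enzyme genes had a median relative to their chromosomes of -0.20 in A2, -0.25 in A3, -0.51 in A9, -0.35 in A10, -0.29 in A13, -0.20 in A14 and 0.04 in A15, against -0.09 in WT1. A15 was above WT1 and the other 6 strains below it, and the mean over strains was -0.25 ± 0.16 (SD, n = 7). Without the subtraction the medians had a mean of -0.34 ± 0.19 (SD, n = 7) against -0.09 in WT1.

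With loess, strain A9 had the most enzyme genes lower than WT2 by at least 0.5. LYS1, LYS9, LYS12, LYS20 and LYS21 were lower than WT2 by at least 0.5 in A9, 5 of the 8 genes, where 7.79% of all genes were. After subtraction of the chromosome median the count was 4 (without LYS20), where 7.4% of all genes were. With median centring in place of loess, LYS9 (-0.64) and LYS21 (-0.97) passed that size in A9, and LYS1 (-0.47), LYS12 (-0.43) and LYS20 (-0.33) did not. The rank of A9 is therefore given for loess alone. With loess, LYS2 was also below its chromosome there by 0.47, and LYS14 was above it by 0.10.

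In A10, LYS4, LYS9, LYS12, LYS14 and LYS20 were lower by at least 0.5, again 5 of 8, but 17.3% of all genes were as low in that strain. With the chromosome median subtracted 3 genes, LYS4, LYS12 and LYS20, were that low, where 14.9% of all genes were. LYS9 and LYS21 were less low in A10 than in most strains, and LYS1 was high. A9 and A10, in both of which the a-specific genes were low, therefore differed from each other in which lysine genes were low. The part of the mating state in these values was not tested.

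In the other strains fewer genes passed that size. LYS9 and LYS21 were lower by at least 0.5 in A3 (6.77% of all genes) and in A13 (1.54%), LYS9 alone in A14 (2.21%), LYS4 and LYS9 in A15 (8.0%), none of the 8 in A2 (7.43%) and none in WT1 (0.0653%). LYS2 was higher by at least 0.5 in A2 (12.2% of all genes), A3 (11.9%) and A15 (13.6%), and LYS1 and LYS12 were in A14 (11.9%). None of the 8 genes was that high in A9, A10 or A13, where 18.1%, 22.4% and 4.99% of all genes were, nor in WT1 (0.196%). After subtraction of the chromosome median none of the 8 genes was higher by 0.5 on any array. The share of all genes that was so was 4.67% in A2, 3.06% in A3, 7.2% in A9, 17.5% in A10, 1.81% in A13, 3.83% in A14 and 5.82% in A15. Relative low values of that size were left for LYS9 and LYS21 in A3 (6.88% of all genes) and for LYS9 in A14 (3.29%) and A15 (7.16%), and for none in A2 (7.79%) or A13 (1.46%). In A13 both genes lay just inside that size before the subtraction, LYS9 at -0.54 and LYS21 at -0.57, and just outside it after, both at -0.498. With median centring in place of loess, LYS9 without the subtraction was outside that size in A3 (-0.46), A10 (-0.41) and A13 (-0.40), as were LYS21 in A13 (-0.44), LYS14 in A10 (-0.39) and LYS4 in A15 (-0.43).

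The homocitrate synthase genes LYS20 and LYS21 encode closely similar isoenzymes, and how far their probes separate the transcripts was not tested. Relative to the chromosome LYS20 exceeded LYS21 by 0.14 in A2, 0.30 in A3, 0.64 in A9, 0.45 in A13 and 0.42 in A15. LYS20 was lower than LYS21 by 0.66 in A10, and the difference in WT1 was -0.01. The genes thus did not move as a pair: LYS21 was the lower one in 5 of the 6 strains with both values, and LYS20 in A10. In A2 the difference was smaller than the gap of 0.42 between the LYS20 spots. In A9 and A15 the LYS20 value rests on 1 spot. With the flagged spots kept, A14 was a further strain with LYS20 (-0.88) below LYS21 (-0.17). Over these 7 arrays their Pearson correlation was -0.019, given as a description since the arrays share WT2 and LYS20 is imprecise.

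**Figure D4:**
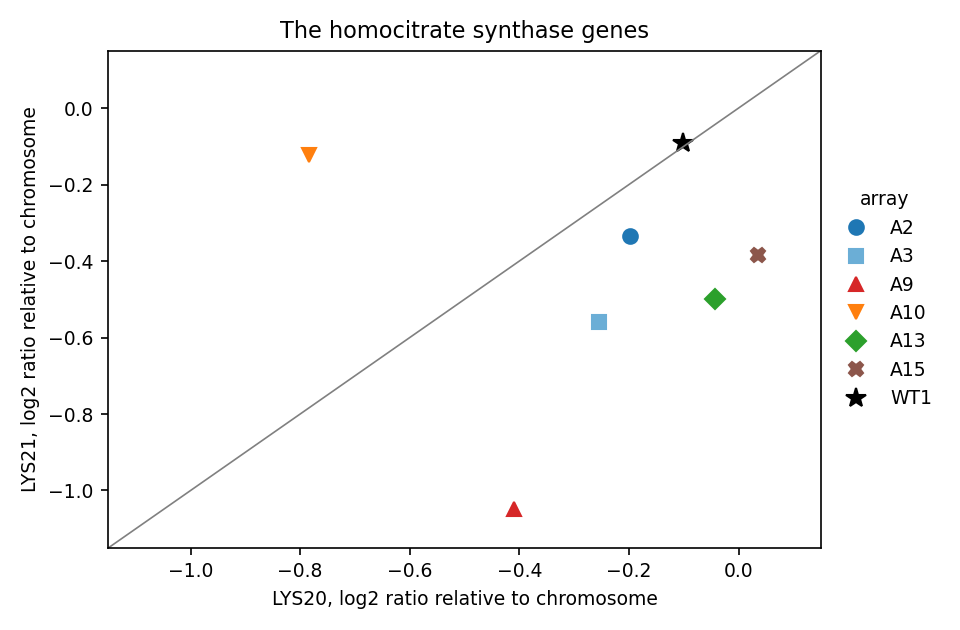
LYS21 (vertical axis) against LYS20 (horizontal axis), both as log2 ratio relative to the chromosome, on the 7 arrays with both values; the grey line marks equality. A10 lies far above the line with LYS20 at -0.78 and LYS21 at -0.12, A9 lies far below it, and WT1 lies on it.

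Among the 8 genes, 22 of 28 pairs had a positive Pearson correlation of their relative ratios over the arrays, with a median of 0.239 and a range of -0.682 (LYS1 with LYS14) to 0.905 (LYS4 with LYS14). High values were also found for LYS12 with LYS20 (0.902, over 7 arrays), LYS2 with LYS12 (0.813) and LYS1 with LYS21 (0.787). LYS9 correlated with the others at 0.075 to 0.543. These correlations rest on 8 arrays or fewer that share the reference sample, and they are given as a description. The share of positive pairs among other genes was not computed, so nothing is read from the count of 22. LYS4 and LYS14, both of chromosome IV, were lowest in A10 and highest in A2, whereas LYS1 and LYS21 were lowest in A9.

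Other genes tied to lysine did not share one direction. LYS5 encodes the phosphopantetheinyl transferase that activates Lys2, and its ratio was -0.53 in A2, -0.55 in A3, -0.64 in A9, -0.55 in A10, -0.54 in A13, -0.29 in A14 and -0.08 in A15, against -0.45 in WT1. LYS5 was thus lower than WT2 in both the strains and WT1, and its mean lay -0.0025 from WT1.

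The aminotransferase gene ARO8 was -0.06 from WT1 in the mean over strains. ARO9, encoding the inducible aromatic aminotransferase, was 1.17 in A2, 1.16 in A3, 0.90 in A9, 1.75 in A10, 1.83 in A13, -1.39 in A14 and 0.89 in A15, against 0.32 in WT1. ARO9 was above WT1 in every strain but A14, where it was far below. The lysine permease gene LYP1 was 0.02 from WT1, and MKS1, also known as LYS80 for its negative effect on lysine genes, was -0.09.

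Among genes that supply 2-oxoglutarate and glutamate or regulate the pathway, GLT1 was low in all strains. GLT1 encodes glutamate synthase, and its ratio was -0.35 in A2, -0.32 in A3, -0.50 in A9, -0.78 in A10, -0.50 in A13, -0.37 in A14 and -0.77 in A15, against 0.17 in WT1. All 7 strains were below WT1, as in 7.34% of the genes measured on every array. The mean difference of GLT1 was -0.68 with an SD over strains of 0.19. GDH1, the main NADP-dependent glutamate dehydrogenase gene, was -0.78 from WT1 with 6 strains below it, but its SD over strains was 0.78. The mitochondrial aconitase gene ACO1 was the opposite case, above WT1 in all 7 strains by a mean of 0.60. All strains were above WT1 in 6.88% of the genes measured on every array. Relative to their chromosomes the mean differences were -0.58 for GLT1 and 0.39 for ACO1.

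The peroxisomal citrate synthase gene CIT2, a target of the retrograde pathway, was 0.61 from WT1 with 6 of 7 strains above. The retrograde regulators RTG1 and RTG2 were both -0.16 from WT1 with all strains below (7.34% of the genes measured on every array). Relative to their chromosomes RTG1 was -0.20 and RTG2 -0.06 from WT1, and for both genes the strains overlapped WT1. RTG3 was 0.41 from WT1 but 0.03 relative to its chromosome, II. The mean differences of the other supply genes were 0.24 for CIT1, 0.07 for IDH1, 0.19 for IDH2, 0.12 for IDP1, 0.23 for GDH3 and 0.29 for GLN1. Relative to their chromosomes GDH3 was 0.04 and GLN1 0.16 from WT1. The transcript of GCN4, whose protein is set mainly by translation, was -0.10 from WT1 over the 6 strains with a value. Of the 14 genes 5 were below WT1 in the mean over strains, with a median difference of 0.16.

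Other amino acid pathways give the setting for these values. Of the 7 lysine enzyme genes 5 were below WT1 in the mean over strains (median difference -0.20). So were 8 of 10 arginine genes (median -0.18), 5 of 6 tested histidine genes (median -0.26) and 6 of 12 branched-chain genes (median -0.07). Over all genes tested 43.8% were below WT1, with a median of 0.04. Relative to the chromosome these counts were 6, 8, 6 and 6, with medians of -0.19, -0.17, -0.25 and -0.03, where 49.8% of all genes were below WT1.

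In the arginine list the lowest were argininosuccinate synthase ARG1 at -0.68 and argininosuccinate lyase ARG4 at -0.47, and the highest ARG2 at 0.27 and CPA1 at 0.12. In the histidine list they were HIS4 at -0.84 and HIS1 at -0.70, with HIS7 at 0.23 and HIS5 at -0.06 the highest. In the branched-chain list they were LEU1 at -0.99 and the aminotransferase BAT2 at -0.84, with ILV5 at 0.44 and ILV6 at 0.38 the highest. Without subtraction of the chromosome median each list held genes above and below WT1, and LYS9, at -0.73, lay between ARG1 and HIS4. HIS7 lies on chromosome II and was -0.15 from WT1 relative to it. On that scale all 6 tested histidine genes were below WT1.

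The pathways parted in single strains. In A9 the relative medians were -0.51 for the lysine enzymes, -0.54 for arginine, -0.56 for histidine and -0.22 for branched-chain genes. In A10 the lysine enzymes and histidine genes were low, at -0.35 and -0.34, whereas arginine and branched-chain genes were at 0.12 and 0.15. In A14 arginine was the lowest at -0.36, against -0.20 for lysine, and in A15 arginine and lysine were at 0.21 and 0.04. Whether the lysine enzymes differed from the other pathways beyond the spread of single genes was not tested.

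**Figure D5:**
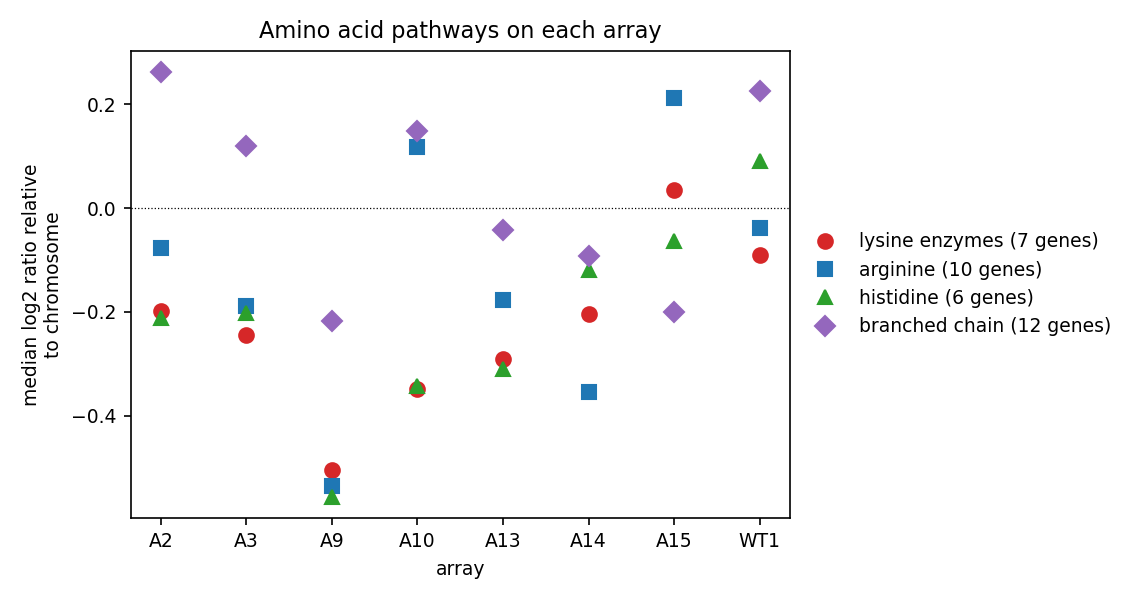
Median log2 ratio relative to the chromosome (vertical axis) of the lysine enzyme genes and the arginine, histidine and branched-chain genes on each array. In A9 the lysine, arginine and histidine genes lie at -0.51 to -0.56, and in A10 lysine and histidine stay at -0.35 and -0.34 while the other lists lie above 0.

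The genes whose relative ratios were most like LYS9 over the 8 arrays, among 2976 genes that varied at least as much as the least variable lysine gene, were SFG1 (Pearson r = 0.873), NUT1 (0.866), NAR1 (0.860), RPS4A (0.852), ZRT1 (0.841) and NFG1 (0.839). In all 6, WT1 was the highest array, as it was for LYS9, so this follows from the measure and is no separate result. In SFG1, NFG1 and the zinc transporter gene ZRT1 every strain was below 0. The relative ratio of ZRT1 was 0.08 in WT1 and -1.67 to -0.25 in the strains. In NUT1, NAR1 and RPS4A the strains lay on both sides of 0, with WT1 at 0.47, 0.84 and 0.79. Most like the mean of the 7 lysine enzymes were RPL24A (0.933), YHI9 (0.920), RPL31A (0.914), ASC1 (0.909), HIS4 (0.899) and AAH1 (0.897). A9 was the lowest array in 5 of them, with HIS4 at -2.11 and AAH1 at -1.73, and A10 was the lowest for RPL31A. RPS4A, RPL24A and RPL31A have near-identical copies, so their probes may not separate the copies. With Spearman's correlation none of the 6 genes of either set was among the 6 most alike, and with ratios not set against the chromosome 5 and 1 were, so these names depend on the measure.

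Across all genes, limma found 0 of 6126 genes higher (0.0%) and 0 lower (0.0%) in the 7 strains than in WT1 at an adjusted p under 0.05. At an unadjusted p under 0.05 it held 32 genes, and 52 of 6123 relative to the chromosome, where 0 were called as well (0.0% each way). The lone WT1 array is assumed there to vary like the strains, whose spread serves as its error. Over genes, however, the SD of WT1 was 0.156, against 0.271 to 0.708 for the strains. The 0 calls therefore do not show that no gene differed, and the 32 and 52 genes are no estimate of how many did. Against WT2 alone, a comparison that shares its reference with the previous one and holds the dye effect, limma called 184 genes lower (3.0%) and 143 higher (2.33%). On the relative ratios it called 380 lower (6.21%) and 318 higher (5.19%). No call is given for the lysine genes, whose values chose them.

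All 7 strains were below WT1 in 7.34% of the genes measured on every array, among them LYS9 and LYS21, and in 8.14% relative to the chromosome, with these same 2 lysine genes. All 7 strains were below WT2 in 7.87%, among them LYS4, LYS9 and LYS21, and in 8.78% relative to the chromosome, among them LYS9 and LYS21. All 7 strains were above WT1 in 6.88%, and in 7.59% relative to the chromosome, with no lysine gene among them. Since the values chose the genes, nothing is read from these counts. The median difference of the enzymes from WT1, -0.20, was -0.09 without A9 and A10, -0.12 without A10 alone, and 0.011 within the slide row that WT1 shared with A13, A14 and A15. The 0.011 was the LYS20 value, which rests on A13 and A15 because both A14 spots were flagged. With those spots kept, the LYS20 ratio in A14 was -0.90. LYS9 was -0.76 from WT1 within that row.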

How the data were processed

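Total RNA of 7 aneuploid strains and WT1 (Cy5) was hybridised with WT2 RNA (Cy3) on 8 arrays of 1 slide. Per the file headers, Agilent Feature Extraction 10.5.1.1 gave a median spot intensity, a local background intensity and a processed signal per channel, with flags for outlier spots, saturation and signal well above background. A log10 ratio of the processed signals, Cy5 over Cy3, stands beside them, per the file headers. The authors' deposited values for the same arrays are on the log2 scale: they matched those log10 ratios, converted to log2, within 5e-04, with the same direction and a median of 0 on every array. The number of columns in that table that belong to no sample is 0.

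From the deposited median intensities, the log2 ratio of Cy5 over Cy3 was computed in limma 3.58.1 (R 4.3.3, with data.table, version 1.17.8) after normexp background correction with an offset of 50 and loess within each array. The 536 control spots and spots flagged as outliers were left out, and values of the 2 spots per gene were averaged. A gene was tested when its Cy5 or its Cy3 signal, not necessarily both, clearly exceeded background on 2 or more arrays (6126 of 6256). Differences were tested with lmFit and eBayes, two-sided, with Benjamini-Hochberg adjustment at 0.05. Relative values subtract the median log2 ratio of the gene's chromosome on that array, with the lysine genes left out. The fits were also run on simulated data with normal errors, in which WT1 varied like the strains. The simulation could not test whether WT1 does so. Tables and plots were made with Python 3.11.15, pandas 2.3.3, numpy 2.4.6 and matplotlib 3.10.9.

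Names came from RefSeq R64 for 5756 genes, and 500 kept the array's name, which can be old. The depth of an array is its signal: median red intensity was 539 to 1532 over backgrounds of 36 to 37, and the number of arrays limits the precision. All 16 spots of each lysine gene were well above background and 0 were saturated.

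The lysine genes and all lists were chosen with earlier results of these data known. Named are all 8 lysine genes, every gene of the further lysine and supply lists except 1 that is not reported here, the 2 lowest and 2 highest genes of each other pathway, the 6 genes most like LYS9 and the enzyme mean, and the mating genes STE2, BAR1, STE3 and HO. Alternatives were other background corrections and offsets, median centring, the deposited table, outlier spots kept, other filters, WT2 as the control, the slide row, and single strains left out.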

Additional observations from a re-analysis of the deposited data

How the results depend on the processing

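No gene was called against WT1 by limma in any of the alternatives to the processing, leave-one-out included, other than the change of control, and 14 to 74 genes had an unadjusted p under 0.05 (36 to 109 relative to the chromosome). With WT2 alone as the control 143 genes were called higher and 184 lower, and 318 and 380 relative to the chromosome. The median difference of the 7 enzymes from WT1, -0.20, was 0.011 both within the slide row of WT1 and with slide row as a block, while relative to the chromosome it was -0.14 against -0.19. Leaving out 1 strain at a time gave -0.26 to -0.12, and -0.25 to -0.13 relative to the chromosome. Without A9 and A10, chosen after seeing the data, it was -0.09, and -0.07 relative to the chromosome. The value of 0.011 was that of LYS20, which had no value in A14. The cause of these changes was not tested.

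Over 19 alternatives the LYS9 mean difference from WT1 ran from -0.76 to -0.62 and that of LYS21 from -0.54 to -0.32. The sign of the mean difference turned for LYS12 (0.24 within the slide row of WT1) and LYS20 (0.01 there, with no LYS20 value in A14). It also turned for LYS2 (-0.25 relative to the chromosome) and LYS1 (-0.05 without A14, -0.04 against WT2). Agilent's processed signals and the deposited table are nearly the same alternative. No paired analysis was possible because the labels carry no replicate numbers shared between the groups. Each strain rests on 1 array, and WT1 on 1, so the spread within a strain or within wild type is unknown, and LYS20 is limited by its spot quality.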
